A study of Mus musculus with 20 samples.

Results

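Trimethylation of lysine 4 of histone H3 (H3K4me3) marks promoters, where it is written by the SET1 and MLL methyltransferase complexes. Most such promoters carry a further mark on lysine 27 of the same histone, either acetylation (H3K27ac), which accompanies transcription, or trimethylation (H3K27me3), which is written by the Polycomb repressive complex PRC2. The same lysine cannot hold both, and promoters with H3K4me3 and H3K27me3 together are called bivalent. Monomethylation (H3K4me1) usually flanks the H3K4me3 of a promoter and covers enhancers. The regions described here had H3K4me3 in hematopoietic stem cells (HSCs) of the fetus and of the adult, and a peak of neither lysine 27 mark at either stage.

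The members were found by merging the fetal and adult H3K4me3 peaks on chromosomes 1 to 19 wherever they shared at least 1 bp. This gave 17586 regions. A fetal and an adult peak were present in 14892 of them. Among these, 802 regions, or 5.39% (95% exact Clopper-Pearson interval 5.03 to 5.76), overlapped no H3K27ac and no H3K27me3 peak of either stage. The other regions of both stages were 10853 with H3K27ac only, 1546 with H3K27me3 only and 1691 with both marks. The members were thus chosen by the called peaks of H3K4me3, H3K27ac and H3K27me3, so the presence of the first and the absence of the others are no findings. Of the both-stage regions without H3K27ac at either stage, the 802 were 34.2% (32.2 to 36.1), and the remaining 1546 carried H3K27me3. The number depends on weak calls of the excluding marks: using only H3K27ac and H3K27me3 peaks at or above the median score of their lists gave 3286 members, with a median length of 1401 bp. With that threshold on every list, H3K4me3 included, 447 regions met the rule. Their median length was 1959 bp, against 2437 bp over all both-stage regions at that threshold. They were mostly not among the 802, of which 793 scored at or below the median of the fetal H3K4me3 list.

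The study profiled 4 histone modifications by chromatin immunoprecipitation and sequencing (ChIP-seq) in B6129SF1 mice. Fetal HSCs came from the liver at embryonic day 14.5 and adult HSCs from the bone marrow at 6 to 8 weeks, and both were sorted as lineage-negative, Sca1+, cKit+ and CD135- cells, with no other surface marker named. Each ChIP used 50000 sorted cells, and the labels list 2 replicates for each mark and stage, but every list used here has combined in its title and is treated as a single call over the pooled pair. No replicate error or test between groups was therefore possible. Intervals in parentheses cover counting error over regions only. Medians are over regions, and neighbouring regions are not independent.

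The lists set the scale of what follows. On chromosomes 1 to 19 there were 16567 fetal and 16156 adult H3K4me3 peaks, 23368 and 17834 H3K27ac peaks, and 14579 and 22831 H3K27me3 peaks. The H3K4me1 lists were unequal, with 92339 fetal and 12502 adult peaks, whose median widths were 430 and 193 bp. The H3K27me3 peaks had median widths of 1408 bp in the fetal and 280 bp in the adult list. Read depth was not given in these lists. Coordinates are mm9, the build named in the submitters' processing notes, and are printed 1-based. No gene positions or sequence of that build were used here, so the regions are named by position, and the sorted cells were not checked against marker genes.

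The H3K4me3 of the 802 regions was narrow. Their merged length had a median of 1094 bp, with quartiles of 936 and 1288 bp and a range of 358 to 4016 bp. Over all 14892 regions of both stages the median was 1984 bp. It was 1317.5 bp for regions with H3K27me3 only, 1909 bp with both marks and 2154 bp with H3K27ac only. Members thus lay at the short end, next to the regions with H3K27me3 only. A wider region offers more bases for any second peak to overlap, so the rule itself favours short regions, and the part of this in the lengths was not tested.

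Within the members the adult peaks were mostly the longer ones. The fetal peaks covered a median of 934 bp of a region and the adult peaks 1025.5 bp. In 576 of 802 regions, or 71.8% (68.6 to 74.9), the adult peaks covered more bases. The same held for 66.4% (64.1 to 68.7) of regions with both marks, 60.5% (58.1 to 63.0) of those with H3K27me3 only and 53.3% (52.3 to 54.2) of those with H3K27ac only, and for 56.5% of all both-stage regions. The bases covered at both stages made up a median of 83.6% of a member, against 83.7% with H3K27me3 only and 90.0% over all both-stage regions. In this the members were like the regions with H3K27me3 only. Stage, library and peak call cannot be told apart in these values.

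**Figure D1:**
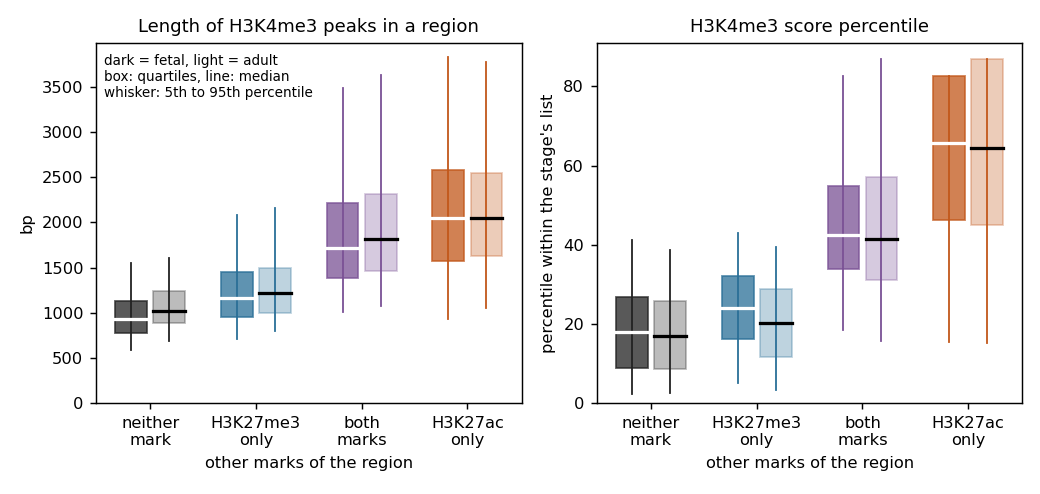
Left, bp of a region covered by H3K4me3 peaks, and right, percentile of the region's best H3K4me3 score within the list of its stage, for regions with neither mark (n = 802), H3K27me3 only (1546), both marks (1691) and H3K27ac only (10853). Boxes span the quartiles, lines are medians and whiskers run from the 5th to the 95th percentile over regions; regions with neither mark are lowest in both panels, with fetal medians of 934 bp and 17.9.

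The authors' peak scores were used only as ranks within a list. A region took the score of its best peak at a stage, as a percentile of all peaks of that list, with ties sharing their mean rank. The median percentile of the members was 17.9 in the fetal and 17.0 in the adult list, against 55.0 and 53.9 over all both-stage regions. Regions with H3K27me3 only had medians of 24.0 and 20.2, and regions with H3K27ac only 65.7 and 64.5. Members were therefore mostly weak calls among H3K4me3 peaks. Under the threshold that gave 3286 members, the medians were 32.6 and 31.6.

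The ranks left almost no member in the upper part of a list. A score at or below the list's median was found for 793 of the 802 regions in the fetal list (98.9%) and for 797 in the adult list (99.4%). Over all both-stage regions these shares were 44.5% and 45.8%. The regions with H3K27me3 only had the same shares as the members, 98.9% and 99.4%, so a low rank was common to the regions without H3K27ac. Scores pile up at 3100 near the top of the scale. Only 3 members reached 3100 in the fetal list and 1 in the adult list, against 36.8% and 26.7% of all both-stage regions. Among the 1546 regions with H3K27me3 only it was 1 in each list.

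Weak at 1 stage mostly meant weak at the other. Across the 802 regions the fetal and adult percentiles had a Pearson's r of 0.722 and a Spearman's rho of 0.677. Over all 14892 regions these were 0.927 and 0.928, where the range of scores is far wider. Length and rank also went together among members, with a Pearson's r of 0.637 and a Spearman's rho of 0.658 for the fetal percentile, and 0.714 and 0.730 for the adult one. These correlations are across regions that share 1 library pool per stage, and peak length and peak score come from the same reads.

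**Figure D2:**
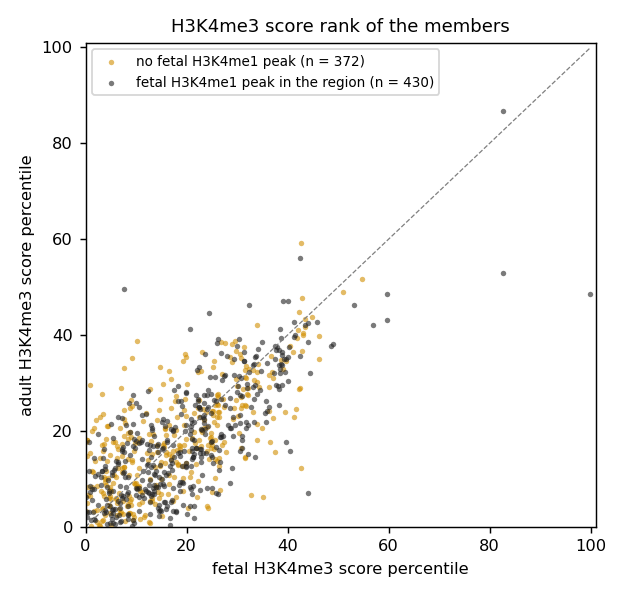
Fetal (x) against adult (y) H3K4me3 score percentile of each of the 802 regions, 1 point a region, coloured by whether a fetal H3K4me1 peak lies in it (430 with, 372 without). Most points sit in the lower left, where both colours spread over the same ranks. No region without fetal H3K4me1 lay above 54.7 (fetal) or 59.2 (adult). The point at upper right is the region on chromosome 13 with a score of 3100 at both stages, and points at 82.6 share that rank through tied scores.

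H3K4me1 was the only profiled mark that the rule did not use, so it alone could divide the members. A fetal H3K4me1 peak overlapped 430 of the 802 regions, or 53.6% (50.1 to 57.1), against 89% of all both-stage regions. The shares were 91.3% (90.7 to 91.8) with H3K27ac only and 86.5% (84.7 to 88.2) with H3K27me3 only. An adult H3K4me1 peak overlapped 14 members, or 1.75% (0.958 to 2.91), against 11.2% of all both-stage regions. The adult list is short, and of these 14 regions 13 also had a fetal peak. When as many top-ranked peaks were taken from either stage for each mark, 992 regions met the rule. Fetal H3K4me1 was found at 5.54% of these and 19.7% of all both-stage regions at that setting. For adult H3K4me1 the shares were 1.81% and 11.2%. When at least 200 bp had to overlap, for any mark, 828 regions met the rule. Adult H3K4me1 was found at 0.483% of these and 4.23% of all both-stage regions. Adult H3K4me1 peaks had a median width of 193 bp, so many could not reach 200 bp by themselves, and the setting itself lowers these shares. In the full lists 417 members had H3K4me1 in the fetal list alone, 1 in the adult list alone, and 371 carried H3K4me3 with no other mark at either stage.

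The lower share of H3K4me1 was also seen beside regions of like score or length. When regions with H3K27ac only were weighted to the members' fetal score deciles, 87.0% had fetal H3K4me1. Weighted to the members' length classes, the share was 80.6%. With score and length classes together it was 83.5%, against 54.4% of the 778 members in classes that both sets filled. For regions with H3K27me3 only the corresponding shares were 84.4%, 80.9% and 79.8%. In the lowest fetal score decile, 106 of 227 members (46.7%, 40.1 to 53.4) had the mark, against 136 of 175 regions with H3K27me3 only (77.7%, 70.8 to 83.6).

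The share of members with H3K4me1 was higher in the longer ones. Fetal H3K4me1 lay in 24 of 58 members of at most 800 bp (41.4%, 28.6 to 55.1), and in 47 of 69 members over 1500 and up to 2000 bp (68.1%, 55.8 to 78.8). At most 800 bp the regions with H3K27ac only were few and their share was close, with 16 of 33 (48.5%, 30.8 to 66.5). Over 1500 and up to 2000 bp it was 87.2% (85.9 to 88.4). Members with and without fetal H3K4me1 had median lengths of 1139 and 1045 bp. Their median fetal percentiles were 18.96 and 16.7, and their adult percentiles 16.5 and 17.3.

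Where a fetal H3K4me1 peak was present, it was usually a modest call that covered less of the region than it left free. Its best peak in a member had a median percentile of 47.8 within the fetal H3K4me1 list, against 71.6 in regions with H3K27ac only and 66.3 with H3K27me3 only. A longer region can hold more peaks, and the best of more peaks ranks higher. Members are the shortest class, and the part of length in this rank was not tested. All fetal H3K4me1 peaks together covered a median of 415.5 bp, or 38.8% of the member. Such partial cover was not particular to members. The median was 38.9% over all both-stage regions with the mark, 36.3% with H3K27ac only and 53.4% with H3K27me3 only. Of the 607 fetal H3K4me1 peaks that touched members, 349 lay wholly inside the region, 250 crossed 1 edge and 8 reached past both. The midpoint was covered in 177 of the 430 members, or 41.2%. A single peak was present in 280 of them, 2 peaks in 127 and 3 or more in 23.

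The profile of H3K4me1 around the centre resembled that of regions with H3K27me3 only in shape, at a lower level, and differed from that of acetylated regions. Over all 802 members, 22.1% had fetal H3K4me1 at the centre, 24.9% at 300 bp from it, where coverage was highest, and 6.23% at 1000 bp. Regions with H3K27me3 only also had their highest coverage at 300 bp, with 50.9%, and had 43.1% at the centre and 16.2% at 1000 bp. Over regions with H3K27ac only, 12.3% were covered at the centre and 43.2% at 800 bp, where coverage was highest. The H3K4me3 region is shorter in members and in regions with H3K27me3 only than in those with H3K27ac only, and the part of its width in these positions was not tested. Adult H3K4me1 covered at most 0.499% of members at any distance up to 5 kb, averaged over both sides.

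**Figure D3:**
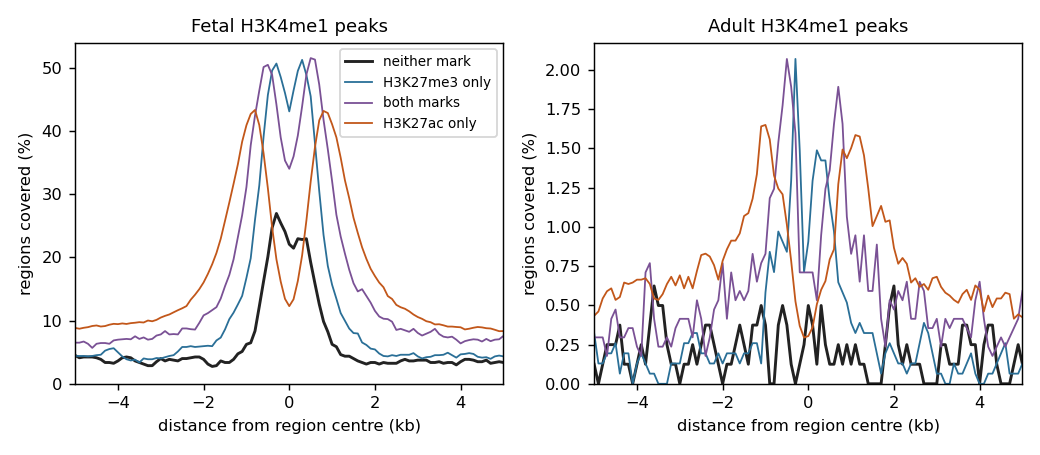
Percent of regions covered by a fetal (left) or adult (right) H3K4me1 peak, in steps of 100 bp, by distance from the centre of the region in kb, for the 4 classes of regions. The y axes differ; fetal coverage of regions with neither mark peaks below 30%, with a shallow dip at the centre, while regions with H3K27ac only show 2 separate flanks.

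The presence of H3K4me1 went with the amount of H3K4me1 nearby. Fetal H3K4me1 peaks that did not overlap the region itself were counted within 100 kb of its edges. Members with fetal H3K4me1 had a median of 15 such peaks and members without it 6, against 16 over all both-stage regions. Where 0 to 2 were nearby, 44 of 166 members carried the mark (26.5%, 19.97 to 33.9), and with more than 40 nearby, 32 of 39 did (82.1%, 66.5 to 92.5). Regions with H3K27ac only also rose along this scale, from 74.4% (71.1 to 77.6) to 98.3% (97.4 to 99.01). Weighted to the members' neighbourhoods, they carried fetal H3K4me1 at 87.5%, and regions with H3K27me3 only at 87.0%.

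**Figure D4:**
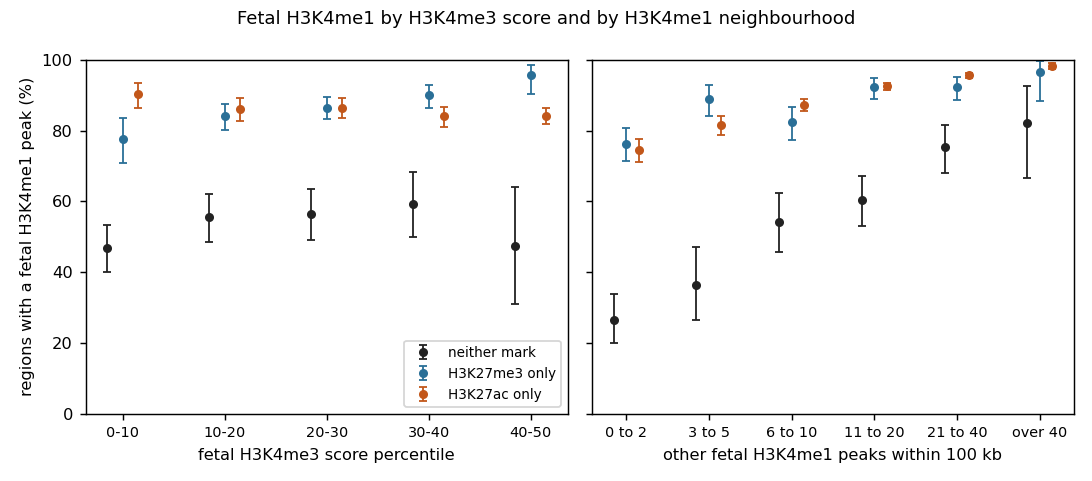
Percent of regions with a fetal H3K4me1 peak, by fetal H3K4me3 score percentile (left) and by the number of other fetal H3K4me1 peaks within 100 kb (right), for regions with neither mark, H3K27me3 only and H3K27ac only. Points are shares and bars 95% Clopper-Pearson intervals, counting error only; regions with neither mark are the lowest in each class shown, from 26.5% to 82.1% along the neighbourhood scale.

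The nearest acetylated peak usually lay well outside the region. The rule bars overlap, so distances are a description. The gap from a member to the nearest fetal H3K27ac peak had a median of 31778.5 bp (quartiles 10654 and 74824.5), and to the nearest adult one 40461 bp (14731 and 94417). For regions with H3K27me3 only, which lack H3K27ac in the same way, the medians were 47325 and 59575.5 bp. Members were thus nearer to acetylated chromatin than the regions with H3K27me3 only. The fetal gap was the shorter in 580 of 802 members (72.3%, 69.1 to 75.4), beside a fetal list with more peaks. Regions with H3K27me3 only had the shorter median gap to fetal peaks too.

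A fetal H3K27ac peak lay within 10 kb of 190 members (23.7%, 20.8 to 26.8) and an adult one of 155 (19.3%, 16.6 to 22.2). Of all both-stage regions, 35.7% and 30.4% had such a peak outside the region itself. Within 100 kb the member shares were 81.7% (78.8 to 84.3) and 76.3% (73.2 to 79.2). For regions with H3K27me3 only they were 70.4% and 64.9%. Of regions with H3K27ac only, 93.5% had a fetal H3K27ac peak outside the region within 100 kb. The neighbouring acetylated peak often lay on another H3K4me3 region. It shared bases with an H3K4me3 region for 552 members in the fetal list (68.8%, 65.5 to 72.0) and for 672 in the adult list (83.8%, 81.1 to 86.3), against 54.4% and 71.8% of the whole lists. The nearest peaks of other both-stage regions were not counted in this way. For members, the nearest acetylated peak lay on the same side at both stages in 686 cases (85.5%, 82.9 to 87.9). In 482 (60.1%, 56.6 to 63.5) the fetal and adult peaks overlapped each other.

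Fetal H3K4me1 was less frequent the farther away the nearest H3K27ac peak lay. With the nearest H3K27ac peak of either stage up to 1 kb away, 18 of 22 members had fetal H3K4me1 (81.8%, 59.7 to 94.8). At 1 to 10 kb it was 129 of 186 (69.4%, 62.2 to 75.9), at 10 to 100 kb 237 of 457 (51.9%, 47.2 to 56.5), and beyond 100 kb 46 of 137 (33.6%, 25.7 to 42.1). Length hardly changed along this order, with medians of 1088, 1086.5, 1093 and 1096 bp in the 4 groups. The median adult score percentile was higher at each step, at 13.1, 15.8, 17.1 and 19.9, while the fetal medians were 16.6, 18.7, 17.0 and 20.7. Across the 802 members the gap had a Pearson's r of -0.0449 and a Spearman's rho of -0.0076 with length, and -0.0037 and 0.0275 with the mean score percentile. Members beyond 100 kb had a median of 0 other H3K4me3 regions and 1 fetal H3K4me1 peak within 100 kb, so the sparse surroundings and the distance cannot be told apart.

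Polycomb peaks were farther away. The gap to the nearest fetal H3K27me3 peak had a median of 77016.5 bp (quartiles 23871 and 235873) and to the nearest adult one 142074 bp (43834 and 426350). Regions with H3K27ac only, which lack H3K27me3 likewise, had medians of 84578 and 137778 bp. The middle of the distribution was therefore close to theirs, while both tails were wider in members. A fetal H3K27me3 peak lay within 10 kb of 129 members (16.1%, 13.6 to 18.8) and of 8.42% (7.91 to 8.96) of the regions with H3K27ac only, and for the adult list the shares were 8.35% (6.53 to 10.5) and 4.21% (3.84 to 4.61). Over all both-stage regions 15% and 14.8% had such a peak outside the region. The nearest H3K27me3 peak shared bases with an H3K4me3 region for 395 members in the fetal list (49.3%, 45.7 to 52.8) and 253 in the adult list (31.5%, 28.3 to 34.9), against 27.7% and 22.7% of the whole lists. The nearest H3K27me3 peaks of other both-stage regions were not counted, so this is not shown to be particular to members. The fetal gap was the shorter in 732 members (91.3%, 89.1 to 93.1). Regions with H3K27ac only likewise had the shorter median gap to fetal peaks, so this direction was not particular to members. The adult list has more peaks, but they are narrower and cover 9.31 Mb against 37.8 Mb in the fetal list.

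In 529 members (66.0%, 62.6 to 69.2) an H3K27ac peak was nearer than any H3K27me3 peak of either stage. The 87 members that lay more than 100 kb from every peak of both marks had fetal H3K4me1 in 26 cases (29.9%, 20.5 to 40.6). They were 10.8% (8.78 to 13.2) of the members. The same shares over the other both-stage regions are not given here, so these values describe the members only.

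**Figure D5:**
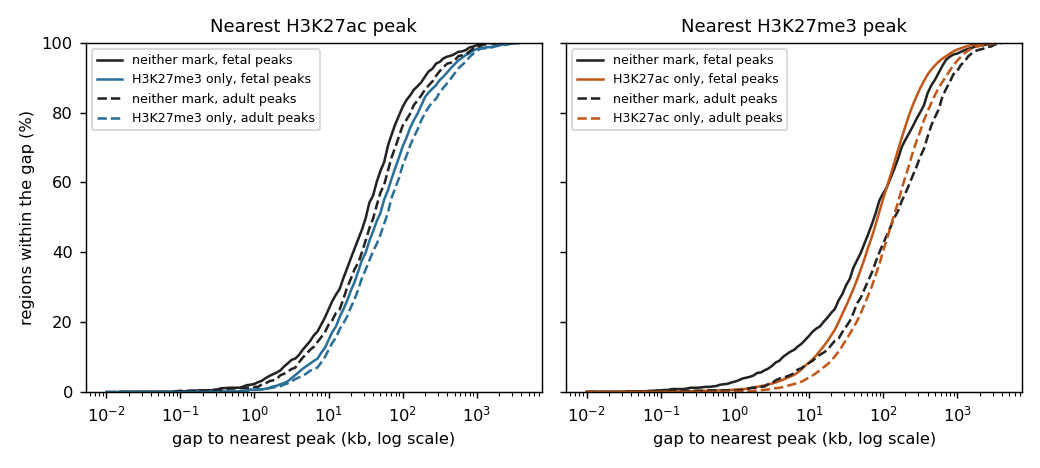
Cumulative percent of regions with the nearest H3K27ac peak (left) or H3K27me3 peak (right) within a gap given in kb on a log axis, solid for fetal and dashed for adult peaks. Regions with neither mark are set beside the class that lacks the same mark; they reach 50% at 31.8 kb for fetal H3K27ac, and for H3K27me3 their curves start above and end below those of regions with H3K27ac only.

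Some members stood out from the narrow and weak majority. The widest, on chromosome 13 from 21258384 to 21262399, was 4016 bp long, had a score of 3100 in both lists and so ranked highest among members. The next H3K27ac peak was 7990 bp away in the fetal and 8162 bp in the adult list, and 400 bp of the region carried fetal H3K4me1. Its neighbour from 21262843 to 21265625 was 2783 bp long and also among the 5 widest, with scores of 2494.93 and 1036.27. For the first of these, both percentiles, 82.6 and 86.8, were above the medians of regions with H3K27ac only.

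The same stretch of chromosome 13 held the next members in order of mean percentile. The region from 21324878 to 21326897 was 2020 bp long with scores of 3233.06 and 1396.34, and the region from 21313297 to 21315811 was 2515 bp long with scores of 3100 and 1676.03. All 3 members with a fetal score of at least 3100 were thus in this stretch. It was looked at after its values were seen, and between 21.2 and 21.4 Mb 7 of the 14 merged H3K4me3 regions were members. Among the others, 3 had H3K27ac only and 4 had H3K27me3 only, 2 of these last without an adult H3K4me3 peak.

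The remaining widest members differed between stages. On chromosome 12 from 42209803 to 42213136, the adult peak spanned all 3334 bp with a score of 1462.18, and the fetal peak 799 bp with a score of 84.4. On chromosome 19 from 29397589 to 29400582 the adult peak covered 2606 bp and the fetal peak 1360 bp. On chromosome 2 from 28475239 to 28478032 both were wide, at 2794 and 2497 bp, and fetal H3K4me1 covered 1925 bp. The others among the 5 highest by mean percentile were on chromosome 1 from 172962806 to 172965095, with a fetal H3K27me3 peak 241 bp away, and on chromosome 6 from 149513808 to 149515574. The latter had scores of 2095.39 and 1591.78, no H3K4me1 and no H3K27ac peak within 155310 bp.

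The 5 members farthest from acetylation were 581 to 1109 bp long, and most had no H3K4me1. The farthest lay on chromosome 14 from 6240093 to 6240967 (875 bp), 2364594 bp from the nearest fetal and 2409263 bp from the nearest adult H3K27ac peak, with scores of 93.05 and 75. Another 2 of the 5 farthest were on the same chromosome, from 7436939 to 7437627 and from 7588875 to 7589983. The others were on chromosome 5 from 13628482 to 13629561 and on chromosome 2 from 176583464 to 176584044. Of these 5, the region on chromosome 5 alone had fetal H3K4me1, over 250 bp.

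Adult H3K4me1 was sparse even where it was most extensive. It covered 245 bp of a region on chromosome 10 from 79758259 to 79759320, which also had 818 bp of fetal H3K4me1. Next came 216 bp on chromosome 9 from 57678662 to 57679594, a region that fetal H3K4me1 covered over all of its 933 bp. On chromosome 6 from 123235521 to 123236596 it covered 211 bp, on chromosome 11 from 54715966 to 54716958 it covered 194 bp, and on chromosome 2 from 170334171 to 170335107 it covered 190 bp. The region on chromosome 11 was the 1 member with adult and no fetal H3K4me1. In 4 of these 5 regions an H3K27ac peak lay within 2418 bp, and for the region on chromosome 11 the nearest was 17765 bp away.

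The weakest members sat at the floor of the lists, where every score is at least 50. The lowest mean percentile was that of a 529 bp region on chromosome 4 from 88406184 to 88406712, with scores of 53.17 and 50.39. Another on the same chromosome, from 88773394 to 88774184, scored 50.93 and 57.57. The others were on chromosome 5 from 122963874 to 122964650, on chromosome 3 from 104518142 to 104519139 and on chromosome 6 from 17533812 to 17534626, with scores between 50.27 and 60.5. None of these 5 was longer than 998 bp.

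The rule also turns on single bases. The members nearest to exclusion were a region on chromosome 8 with a fetal H3K27me3 peak 4 bp away, one on chromosome 1 with fetal H3K27ac 15 bp away and one on chromosome 12 with fetal H3K27me3 34 bp away. Just outside the rule, regions on chromosomes 19, 9 and 14 shared 1, 11 and 19 bp with an H3K27me3 peak. Within 1 kb, 22 members had H3K27ac and 27 had H3K27me3, and 753 members had neither.

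Members were found on all 19 chromosomes used, at 3.76% (2.42 to 5.55) of both-stage regions on chromosome 15 to 6.79% (4.98 to 9.01) on chromosome 13. Most stood alone. Along the order of all merged H3K4me3 regions, 676 had no member as a direct neighbour, and the other 126 formed 42 pairs, 11 runs of 3, 1 run of 4 and 1 run of 5. The nearest other member was a median of 710592 bp away and within 100 kb for 129 members.

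The run of 5 lay on chromosome 2 from 177249388 to 177692144 and was looked at after it was found. Its regions were 912 to 1193 bp long, with fetal scores of 57.61 to 521.75 and adult scores of 87.68 to 319.56, and none overlapped an H3K4me1 peak. The nearest H3K27ac peak was at least 63490 bp away from each. In the 1 Mb bin from 177000001 to 178000000 that holds them, 6 of 7 both-stage regions were members. Another bin with 6 members, among 11 both-stage regions, was on chromosome 13 from 62000001 to 63000000.

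Regions without lysine 27 marks were more frequent where H3K4me3 itself was called at a single stage. Of 1514 fetal-only H3K4me3 regions, 456 had neither mark (30.1%, 27.8 to 32.5), and of 1180 adult-only regions 438 did (37.1%, 34.4 to 39.9), against 5.39% of both-stage regions. They were shorter still, with median lengths of 734 and 883 bp.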

How the data were processed

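Histone ChIP-seq peaks of fetal liver and adult bone marrow HSCs were analysed from 8 deposited lists, 1 per mark and stage, each giving chromosome, start, end, name and score. Reads were aligned with Bowtie2 2.2.2 to mm9, per the submitters' processing notes, and MACS appears in the peak names of the deposited lists. Its version, its settings, the control and the depth are not given in the sources used here. The score column of the deposited lists holds the authors' value, 50 or more throughout, and was used only for ranks within a list. The 4 input samples and single replicates were not analysed here.

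Starts were read as 0-based, as in BED files. Peaks on chromosomes 1 to 19 were used and H3K4me3 peaks of both stages were merged where they shared 1 bp. Gaps run from region edge to peak edge. Regions named are, by rule, the 5 widest, the 5 with the highest and lowest mean score percentile, the 5 farthest from H3K27ac, the 5 with most adult H3K4me1, and 3 on either side of the selection. The members and lists were chosen with earlier results of these data known. Weighted shares use strata with at least 10 regions. Alternatives changed the score threshold, peak number, overlap (200 bp), reach (1 kb), merging (1 kb) and chromosomes. Planned counts of gene starts, gene lists, marker genes and base composition were left out because no annotation or genome of mm9 was used. Overlaps, gaps and ranks were computed in Python 3.11.15 (pandas 2.3.3, numpy 2.4.6), intervals with scipy 1.17.1 and figures with matplotlib 3.10.9, by code tested on simulated data.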

Additional observations from a re-analysis of the deposited data

Results flagged for a closer look

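Chromosome X was outside the comparisons above. Under the same rule it held 81 members among 502 both-stage H3K4me3 regions, which is 16.1% (13.03 to 19.7), and it stands out as a signal in data not otherwise used. Of these 81 regions 2 had fetal H3K4me1 (2.47%, 0.3004 to 8.64), and of all 502 regions 63 did (12.5%, 9.78 to 15.8). The members on X had a median length of 1191 bp and median score percentiles of 21.7 in the fetal and 22.0 in the adult list. Over the 802 regions these medians were 1094 bp, 17.9 and 17.0. Chromosome Y had no member among 3 both-stage regions.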

How the results depend on the processing

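No paired analysis was possible because each combined list was taken as a pool of the replicates, so there is no test and no replicate to leave out. Medians and shares are called moved outside their 95% interval, counts beyond a factor of 1.5. Of 39 values under alternatives, 25 stayed and 14 moved, and unless said otherwise the cause was not tested. Keeping only peaks at or above the median score of each list gave 447 regions that met the rule, among 7697 both-stage regions. Median lengths were 1959 bp for the 447 and 2437 bp for the 7697. The 447 were mostly not among the 802, of which 793 scored at or below the fetal H3K4me3 median. Median gaps were then 41538 and 58095 bp to fetal and adult H3K27ac, and 97399 and 182364 bp to H3K27me3; fewer peaks lengthen gaps by construction. Fetal H3K4me1 was at 51.0% of those 447 regions and 73.3% of the 7697. Applying that threshold to H3K27ac and H3K27me3 alone gave 3286 members, 1401 bp long in the median, at score percentiles of 32.6 (fetal) and 31.6 (adult), so the set depends strongly on weak calls of the excluding marks. With equal numbers of top-ranked peaks per stage, 992 regions met the rule. Fetal H3K4me1 was at 5.54% of them and 19.7% of both-stage regions, and adult H3K4me1 at 1.81% and 11.2%. The median gaps were 35153.5 bp to fetal H3K27ac and 193642 bp to adult H3K27me3. With an overlap of at least 200 bp, 828 regions met the rule, and adult H3K4me1 was at 0.483% of them and 4.23% of both-stage regions. Many adult H3K4me1 peaks, with a median width of 193 bp, cannot reach that overlap, so the setting itself lowers these shares. Under each alternative run for it, the share of H3K4me1 was lower in members than in all both-stage regions at both stages. Leaving out the 7 members of the chromosome 13 stretch, chosen after the data were seen, gave a median length of 1092 bp.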
